A study of Mus musculus with 4 samples.

Results

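Collagen genes were examined in open chromatin of 4 mouse muscles. EDL (extensor digitorum longus) and Quad (quadriceps) are mostly fast and glycolytic, Sol (soleus) is slow and oxidative, and Dia (diaphragm) is the mixed muscle of breathing. A peak was counted as a collagen peak when the gene name given to it, that of the nearest transcription start site, was Col, a number, a and a number. This gave 321 of the 120839 peaks in the 4 lists, 83 in EDL and 133 in Quad, 68 in Sol and 37 in Dia, and they named 36 of the 44 collagen genes in the RefSeq annotation. ATAC-seq reads open chromatin through a transposase that cuts accessible DNA. All mice were wild type with no treatment in any group, C57BL/6 by the labels, and the methods describe C57BL/6J males obtained at 7 to 8 weeks of age. Each muscle had 1 sample from frozen, powdered whole tissue, labelled as pooled and called 1 library here. How many animals or replicate libraries each pool combined was not stated. Values therefore describe these 4 pooled libraries, and no p-value between muscles was computed. Whole muscle holds fibres, fibroblasts, vessels and other cells, and fewer cells of a type cannot be told apart from less open chromatin per cell.

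Collagens are secreted or membrane-bound triple-helical proteins of the extracellular matrix. In muscle the fibrillar types I, III and V build the cords and sheets around fibres and fascicles, type IV forms the network of the basement membrane, and type VI makes beaded filaments that link this membrane to the interstitial matrix. Fibroblasts and fibro-adipogenic progenitors make most of the fibrillar and type VI collagen, while vessels and muscle fibres lie on type IV collagen.

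In all, 30136 peaks were listed for EDL, 40337 for Quad, 28784 for Sol and 21582 for Dia. The score of a peak is its tag count scaled by library size, and the steps between low scores gave 78.1 M to 105 M tags (M, mega) per library, lowest in Quad. The lowest listed peak held 25 to 36 tags. Because peak width and threshold were set in each library, a peak was ranked by its score percentile, its rank among all peaks of the same list from 0 for the weakest to 100 for the strongest. A missing peak means only that none was listed there.

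The following sequences carry the patterns described below. They are mm10 sequence, given 5′ to 3′ on the strand of the collagen gene, with capitals marking the short motif letters that were searched on both strands. The AP-1 letters were TGANTCA, a site of the FOS and JUN family. The NFAT letters were TGGAAA. The TEAD letters were GGAATG. The promoter elements were searched as GGGCGG for the GC box and as CCAAT for the box of that name, and a MEF2 site was searched as well. The first pair shows type I collagen: the peak in intron 1 of Col1a1 (chr11:94937086-94937274, plus strand) and a peak 17.1 kb upstream of Col1a2 listed in Quad alone (chr6:4488441-4488629, plus strand). The Col16a1 promoter (chr4:130047671-130047839, plus strand) is 1 of 3 collagen promoters listed in all muscles, and is shown up to its GENCODE transcript start.
Col1a1 intron 1: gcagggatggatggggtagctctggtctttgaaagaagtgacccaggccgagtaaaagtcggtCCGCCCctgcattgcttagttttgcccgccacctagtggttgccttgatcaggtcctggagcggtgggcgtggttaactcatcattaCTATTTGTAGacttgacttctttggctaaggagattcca
Col1a2 upstream: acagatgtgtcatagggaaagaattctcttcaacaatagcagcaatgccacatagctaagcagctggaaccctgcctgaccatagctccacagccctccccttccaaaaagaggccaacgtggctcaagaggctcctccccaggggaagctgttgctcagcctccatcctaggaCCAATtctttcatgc
Col16a1 promoter: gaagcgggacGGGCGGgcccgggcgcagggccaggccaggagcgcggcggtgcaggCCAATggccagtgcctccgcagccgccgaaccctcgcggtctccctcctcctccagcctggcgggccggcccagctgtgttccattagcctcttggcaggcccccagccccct

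The next sequences are the highest-ranked shared regions given to each of the type IV collagen genes, listed in all 4 muscles. Region A lies 129 kb upstream of Col4a2 (chr8:11183637-11183845, plus strand), and region B is the peak given to Col4a1 that lies in intron 3 of Col4a2 (chr8:11348711-11348899, minus strand).
Col4a2 region A: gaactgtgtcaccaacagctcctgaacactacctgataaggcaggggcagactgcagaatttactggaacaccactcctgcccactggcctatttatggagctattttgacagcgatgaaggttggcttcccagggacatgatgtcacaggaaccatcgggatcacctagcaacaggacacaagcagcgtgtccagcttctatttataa
Col4a1 region B: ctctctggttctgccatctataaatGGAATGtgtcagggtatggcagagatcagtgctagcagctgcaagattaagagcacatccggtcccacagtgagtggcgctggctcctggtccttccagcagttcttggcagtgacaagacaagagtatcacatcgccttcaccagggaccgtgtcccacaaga

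The last set shows the highest-ranked collagen peaks outside promoters that held the AP-1 letters, 1 per gene and for 4 genes. They lie 141 kb upstream of Col4a2 (chr8:11171649-11171857, plus strand), in intron 1 of Col6a3 (chr1:90838681-90838869, minus strand), 40.4 kb upstream of Col18a1 (chr10:77206814-77207002, minus strand) and 10.5 kb upstream of Col16a1 (chr4:130037283-130037471, plus strand).
Col4a2 with AP-1 letters: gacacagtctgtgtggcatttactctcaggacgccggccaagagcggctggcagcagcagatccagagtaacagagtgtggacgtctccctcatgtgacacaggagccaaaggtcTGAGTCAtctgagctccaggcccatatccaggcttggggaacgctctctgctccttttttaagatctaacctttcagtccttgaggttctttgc
Col6a3 with AP-1 letters: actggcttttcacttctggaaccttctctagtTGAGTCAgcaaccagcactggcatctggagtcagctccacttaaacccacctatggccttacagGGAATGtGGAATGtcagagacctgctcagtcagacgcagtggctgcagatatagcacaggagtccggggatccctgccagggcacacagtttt
Col18a1 with AP-1 letters: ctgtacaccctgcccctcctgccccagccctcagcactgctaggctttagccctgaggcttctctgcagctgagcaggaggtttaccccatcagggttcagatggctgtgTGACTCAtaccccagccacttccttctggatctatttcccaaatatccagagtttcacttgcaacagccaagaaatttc
Col16a1 with AP-1 letters: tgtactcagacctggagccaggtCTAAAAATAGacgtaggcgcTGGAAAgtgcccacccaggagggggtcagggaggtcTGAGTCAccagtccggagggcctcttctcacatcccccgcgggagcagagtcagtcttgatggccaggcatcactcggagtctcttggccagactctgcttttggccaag

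Most collagen genes had open chromatin nearby, but fewer had a listed promoter. In EDL 33 of the 44 genes (75.0%, 95% Wilson interval 60.6% to 85.4%) had at least 1 peak, against 55.9% of the 21900 protein-coding genes. The numbers were 35 genes in Quad (79.5%, 65.5% to 88.8%, against 61.5%), 28 in Sol (63.6%, 48.9% to 76.2%, against 55.6%) and 24 in Dia (54.5%, 40.1% to 68.3%, against 52.3%). Thus the share lay above the protein-coding share outside the interval in EDL and Quad, and within the interval in Sol and Dia. The 2 sets of genes were not matched for length, which ran from 7.10 kb (Col10a1) to 420 kb (Col25a1) among collagen genes. A peak at the promoter, which reached 1 kb upstream and 100 bp downstream of the start site, was listed for 7 collagen genes in EDL (15.9%, 7.93% to 29.4%), where 38.5% of protein-coding genes had one. It was listed for 15 genes in Quad (34.1%, 21.9% to 48.9%, against 42.2%), and for 5 genes each in Sol and Dia (11.4%, 4.95% to 24.0%, against 38.4% and 37.8%). In Quad the protein-coding share fell within the interval, and in the other 3 muscles it lay above it.

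**Figure D1:**
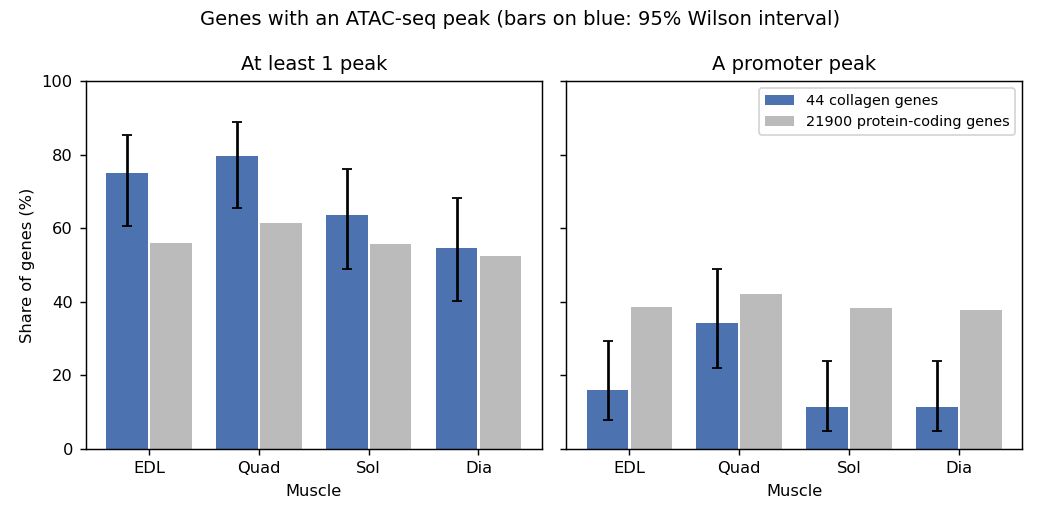
Share of genes (percent) with at least 1 peak (left) and with a promoter peak (right) in each muscle, for 44 collagen genes (blue, with 95% Wilson intervals) and 21900 protein-coding genes (grey). Collagen genes with a peak ran from 54.5% in Dia to 79.5% in Quad, while promoter peaks ran from 11.4% in Sol and Dia to 34.1% in Quad.

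Counted as peaks rather than genes, promoters held 8.43% of the collagen peaks in EDL and 30.8% of the other EDL peaks, a difference of -22.4 percentage points (95% Newcombe interval -26.7 to -14.4). The difference was -13.5 points in Quad (-18.0 to -6.90), where the shares were 12.0% and 25.6%. In Sol the shares were 7.35% and 31.9% (-24.6 points, -28.8 to -15.8), and in Dia they were 13.5% and 41.3% (-27.8 points, -35.4 to -13.3). The share was therefore lower at collagen genes in every list. Intragenic peaks made up 53.0% of collagen peaks in EDL, 49.6% in Quad and 48.5% in Sol, with 48.6% in Dia, and intergenic peaks 38.6%, 38.3%, 44.1% and 37.8%. Of the intragenic peaks, 42 of 44 in EDL, 63 of 66 in Quad, 31 of 33 in Sol and 16 of 18 in Dia were intronic, and 11, 16, 6 and 2 of these lay in a first intron.

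Collagen peaks also lay far from start sites. The median distance of those outside promoters was 41.7 kb in EDL, 40.4 kb in Quad, 40.2 kb in Sol and 43.5 kb in Dia, compared with 24.1, 25.4, 25.2 and 22.8 kb over all peaks outside promoters. More than 50 kb from the start site lay 43.4% of them in EDL and 39.3% in Quad, 42.9% in Sol and 40.6% in Dia, against 28.9%, 30.9%, 30.7% and 27.7% of all such peaks. The Col1a1 gene spans 16.8 kb and Col25a1 420 kb, so distance also depends on the gene. Peaks per gene averaged 1.89 in EDL, 3.02 in Quad and 1.55 in Sol, with 0.841 in Dia at collagen genes, and 1.19, 1.57, 1.14 and 0.869 at protein-coding genes.

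The scores of collagen peaks sat in the lower part of each list. The median percentile was 37.0 in EDL and 46.5 in Quad, 41.1 in Sol and 26.5 in Dia. Since promoters generally carry the highest scores, peaks outside promoters were compared among themselves: the medians at collagen genes were 37.7, 45.0, 40.5 and 26.5, and over all genes 38.3, 40.0, 38.2 and 34.1. By these medians the collagen peaks outside promoters were close to other peaks in EDL and Sol, higher in Quad and lower in Dia, but the order of the muscles depended on how many peaks were ranked. When each list was limited to its 20000 top peaks and ranked again, collagen peaks had medians of 25.0 in EDL and 27.3 in Quad, 32.1 in Sol and 34.4 in Dia, which turned the order. The listed collagen promoters had medians of 37.0 in EDL, 60.0 in Quad and 56.1 in Sol, with 45.3 in Dia, all below the medians of all promoter peaks (76.3, 81.3, 75.7 and 74.1). Only 1 collagen peak in EDL, none in Quad, 1 in Sol and 1 in Dia lay above percentile 90.

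**Figure D2:**
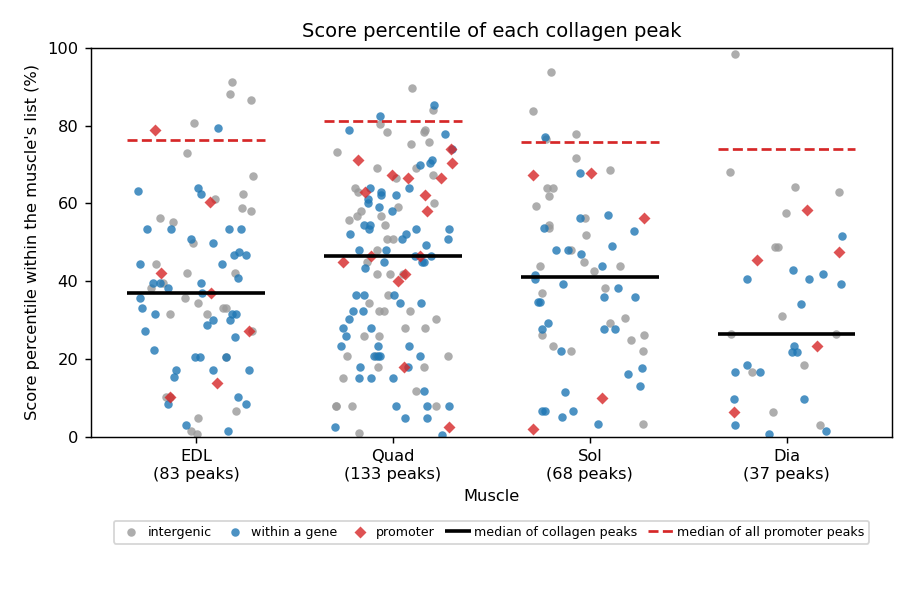
Score percentile (0 to 100) of every collagen peak in its own list, by muscle, with intergenic peaks in grey, peaks within genes in blue and promoter peaks as red diamonds. Black lines give the medians of collagen peaks (37.0, 46.5, 41.1 and 26.5) and dashed red lines the medians of all promoter peaks, which were 74.1 to 81.3.

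The strongest collagen peak in Quad, Sol and Dia lay 25.3 kb upstream of Col19a1, which encodes a minor fibril-associated collagen (chr1:24612621-24612853). Its percentile was 86.7 in EDL and 89.6 in Quad, 93.9 in Sol and 98.4 in Dia. Its central 200 bp were 99.5% identical to the mitochondrial genome, and it was the only 1 of 176 collagen regions with at least 90% identity (10 of 53857 among all regions on assembled chromosomes). The part of mitochondrial reads in its score was not tested. Without it the highest collagen percentiles were 91.2 in EDL (Col4a2), 85.3 in Quad (Col4a1), 83.7 in Sol (Col4a2) and 68.1 in Dia (Col18a1), and the medians became 37.0, 45.8, 40.5 and 26.5.

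The fibrillar class, the rope-forming collagens, was the largest, with 11 of the 44 genes. Without division by class size it held the most peaks: 27 in EDL, 41 in Quad and 17 in Sol, with 10 in Dia. Among the 20000 top peaks of each list it held 13, 15, 7 and 7, which in Sol was fewer than the 9 each of the basement membrane and beaded-filament classes. All 11 of its genes had a peak in at least 1 list. Promoter peaks were listed for 1 fibrillar gene in EDL, 5 in Quad, 1 in Sol and none in Dia. The median percentile of the class was 33.0 in EDL and 41.8 in Quad, 29.3 in Sol and 20.0 in Dia.

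Type I collagen is a heterotrimer of the products of Col1a1 and Col1a2, on chromosomes 11 and 6. Col1a1 had 2 peaks in EDL, 4 in Quad and 3 in Sol, with 1 in Dia, and none was annotated as a promoter. Its first-intron peak, whose sequence is printed above, began less than 1 kb downstream of the start site. It scored 8.37 in EDL (62.5th percentile) and 9.09 in Quad (69.8th percentile). A Dia peak of score 6.55 in the same intron ended 25 bp from it, so the regions did not join, and no peak was listed there in Sol. Sol listed instead the upstream peaks at 7.13, 19.5 and 22.4 kb, with percentiles of 44.8, 42.7 and 23.4. Quad listed peaks at all of these upstream positions too, EDL only the farthest, and Dia none.

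Col1a2 had 6 peaks in EDL and 7 in Quad, 5 in Sol and 1 in Dia, spread over a range from the promoter to 155 kb upstream. The promoter was listed in EDL (score 5.87, percentile 37.0) and in Quad (score 6.28, percentile 46.5) and in neither Sol nor Dia. The region 47.8 kb upstream was the only Col1a2 region listed in all muscles. It scored 5.2 in EDL (95% Poisson interval of the inferred tags 3.90 to 6.78) and 8.96 in Quad (6.99 to 11.3). In Sol it scored 5.54 (4.21 to 7.17) and in Dia 5.14 (3.82 to 6.75). The Quad interval was clear of those of EDL and Dia and overlapped that of Sol. All but the promoter peaks were intergenic. The peak at 17.1 kb, printed above, was listed in Quad alone at percentile 63.0, about 1 kb from a peak that EDL, Quad and Sol shared.

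Type III collagen, the partner of type I in reticular fibres, had peaks in EDL and Quad only, as had Col4a4, Col11a2, Col17a1 and Col27a1. The EDL and Quad lists were the longest, and the share of all genes listed in these alone was not computed. Col3a1 had 4 peaks in EDL and 5 in Quad, and none in Sol or Dia. All were weak, from percentile 0.654 to 20.5 in EDL and from 7.89 to 34.4 in Quad, so a slightly higher threshold would have removed several of them. The nearest to the start site lay 2.37 kb upstream, in Quad.

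Type V collagen nucleates fibrils and sets their diameter. Col5a1 had 5 peaks in EDL, 11 in Quad and 3 in Sol, with 1 in Dia. Its promoter was listed in Quad alone (score 8.71, percentile 67.4). The region 27.7 kb upstream was common to all lists, at percentiles of 31.6, 50.8, 56.1 and 31.1 in EDL, Quad, Sol and Dia. Col5a2 had 3, 3, 1 and 3 peaks. The region at its start site was listed in all muscles and scored 7.31 in EDL (5.76 to 9.15), 8.58 in Quad (6.65 to 10.9), 3.73 in Sol (2.65 to 5.10) and 4.63 in Dia (3.39 to 6.18). The intervals of EDL and Quad did not overlap that of Sol. The peak centres of EDL and Dia fell just beyond the promoter limit, in the 5′ UTR, so the annotation calls a promoter in Quad and Sol only. Col5a3 had 2, 3, 2 and 2 peaks, with a Quad promoter at percentile 63.0.

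The minor fibrillar genes had little open chromatin. Col2a1 and Col11a1, the fibrillar genes of cartilage, had 5 peaks and 1 peak over the 4 lists, none at a promoter, with top percentiles no higher than 43.8. Col11a2 had a first-intron peak in EDL and Quad, at percentiles of 63.9 and 71.2. Col24a1 had 2, 2, 2 and 1 peaks, and Col27a1 1 peak in EDL and 2 in Quad, of which the Quad promoter ranked at percentile 45.0.

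**Figure D3:**
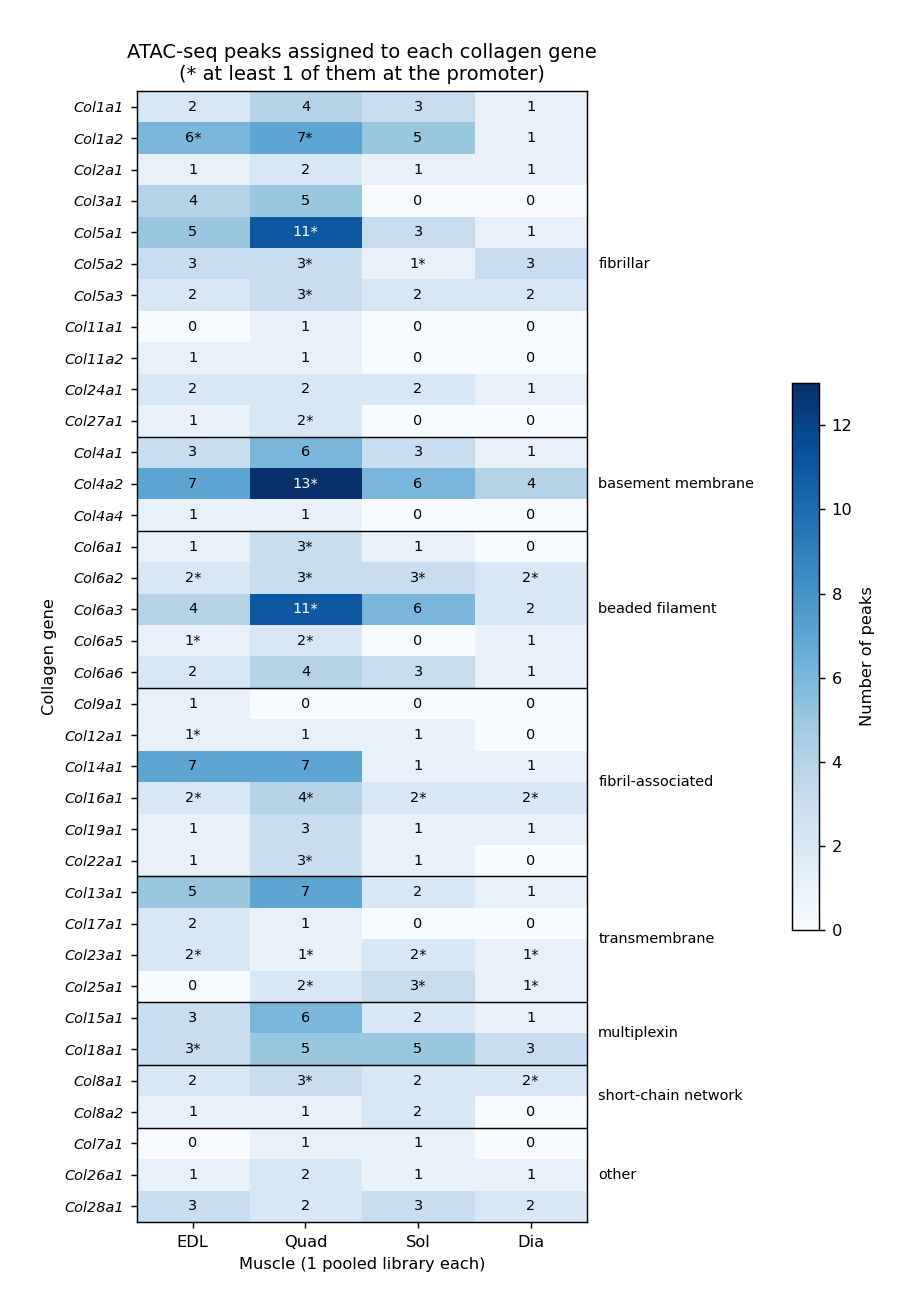
Number of ATAC-seq peaks given to each of the 36 collagen genes with a peak, by muscle, with darker blue for more peaks, genes grouped by class, and an asterisk where a promoter peak was among them. Col4a2 (13), Col5a1 and Col6a3 (11 each) had the most peaks in Quad, and Col3a1 had none in Sol or Dia.

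Type IV collagen gave the highest-ranked collagen peak of EDL and, without the mitochondria-like region, of Quad and Sol. Col4a1 and Col4a2, on chromosome 8, encode the chains of the network found in all basement membranes and are transcribed in opposite directions from a shared promoter region. Col4a2 had the most peaks of the collagen genes over the 4 lists summed (30), 7 in EDL and 13 in Quad, 6 in Sol and 4 in Dia, and Col4a1 had 3, 6, 3 and 1. The nearest start site does not tell which gene a peak serves here: all intragenic peaks given to either gene, 7 in EDL, 14 in Quad and 6 in Sol, with 2 in Dia, lay inside the other one. The pair is therefore described as 1 locus.

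In this locus 5 regions were listed in all muscles. Region A scored 16.2 in EDL (13.8 to 18.8), 12.6 in Quad (10.2 to 15.3), 12.7 in Sol (10.6 to 15.1) and 9.27 in Dia (7.47 to 11.4). Its EDL percentile of 91.2 was the highest of all collagen peaks in that list, and the EDL interval did not overlap that of Dia. Region B, in intron 3 of Col4a2, scored 11.4 in EDL (9.40 to 13.6), 13.1 in Quad (10.7 to 15.9), 6.88 in Sol (5.38 to 8.67) and 6.85 in Dia (5.32 to 8.68). Here the fast muscles, EDL and Quad, lay above Sol and Dia with no overlap of the intervals. The region 141 kb upstream also scored higher in EDL and Quad than in Sol and Dia, with 14.3, 11.4, 8.51 and 8.36, although the interval of Quad (9.15 to 14.0) overlapped those of Sol (6.83 to 10.5) and Dia (6.66 to 10.4). A neighbouring region 139 kb upstream scored highest in Sol, at 9.94 (8.12 to 12.0), with 7.60, 7.43 and 7.35 in EDL, Quad and Dia and overlapping intervals. By score alone, regions a few kilobases apart did not rank the muscles alike, but the intervals at 139 kb do not separate the muscles. These intervals cover counting error alone, and the peak widths of the lists differ from 188 to 232 bp.

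The shared promoter itself was listed in Quad alone, by a peak at the Col4a2 start site (score 9.86, 7.78 to 12.3, percentile 74.0) and another about 1 kb upstream (score 9.35, percentile 71.2). The nearest peak of another list lay 10016 bp from the first. The tissue-restricted chains of type IV collagen had few listed peaks. Col4a4 had 1 peak each in EDL and Quad (percentiles 53.4 and 45.0), and Col4a3, Col4a5 and Col4a6, whose products serve kidney, lung and some epithelial or smooth muscle membranes, had none.

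**Figure D4:**
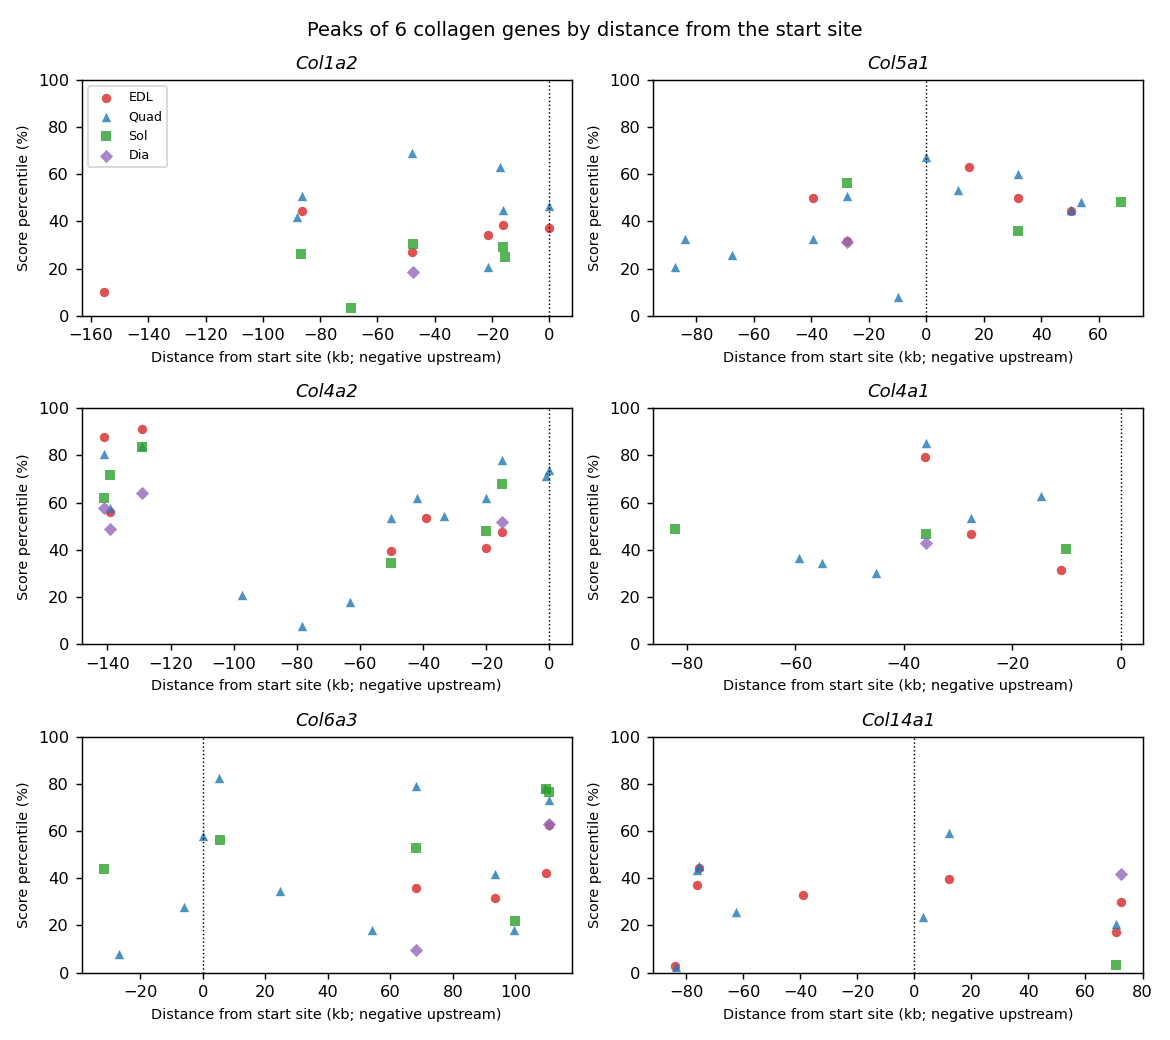
Peaks of Col1a2, Col5a1, Col4a2, Col4a1, Col6a3 and Col14a1 by distance from the start site (kb, negative upstream) and score percentile, with EDL as circles, Quad as triangles, Sol as squares and Dia as diamonds. Far upstream clusters stand out at Col4a2, where EDL reached 91.2, and the far Col1a2 peaks are all upstream.

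Type VI collagen, mutated in Ullrich and Bethlem muscle disease, had 10 peaks in EDL and 23 in Quad, 13 in Sol and 6 in Dia over the beaded-filament class. Col6a2 had the most even pattern, with 2, 3, 3 and 2 peaks. Its promoter was listed in every muscle, scoring 11.3 in EDL (9.31 to 13.5), 8.58 in Quad (6.65 to 10.9), 7.84 in Sol (6.23 to 9.73) and 7.05 in Dia (5.50 to 8.91). A second shared region 41.3 kb upstream scored 11.7, 10.9, 6.98 and 7.35. Both regions scored highest in EDL, and at the promoter the EDL interval was clear of Dia and overlapped those of Quad and Sol.

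Col6a1, the neighbour of Col6a2 on chromosome 10, had 1 peak in EDL, 3 in Quad, 1 in Sol and none in Dia, with a promoter in Quad at percentile 41.8. Col6a3, whose product completes the type VI heterotrimer, had 4, 11, 6 and 2 peaks. The region downstream of the gene, 111 kb from the start site, was listed in all muscles at percentiles of 62.5 in EDL, 73.3 in Quad and 76.6 in Sol, with 62.9 in Dia. An exonic region 68.2 kb from the start scored 5.77 in EDL (4.41 to 7.43), 11.0 in Quad (8.81 to 13.6), 7.46 in Sol (5.89 to 9.30) and 4.63 in Dia (3.39 to 6.18), so Quad overlapped only Sol. The intron 1 peak with AP-1 letters was listed in Quad alone at percentile 82.5, the highest of the collagen peaks found in 1 list, but a Sol peak of percentile 56.1 ended 254 bp away. The Col6a3 promoter was listed in Quad only (percentile 57.9).

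The alternative type VI chains had few peaks. Col6a5 had 1, 2, 0 and 1, with a promoter in EDL and Quad (percentiles 13.7 and 46.5), and Col6a6 had 2, 4, 3 and 1. Col6a4 had none by nearest start site, although peaks given to Col6a5 lay in its intron 33 in Quad and Dia.

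The fibril-associated class, which decorates fibril surfaces, held 13 peaks in EDL and 18 in Quad, 6 in Sol and 4 in Dia. Col14a1, a collagen of perimysium and tendon, accounted for much of this difference, with 7 peaks each in EDL and Quad and 1 each in Sol and Dia. Of these, 3 in EDL and 4 in Quad lay in an intron of Deptor, an inhibitor of mTOR signalling upstream of Col14a1. The only Col14a1 peak in Sol ranked at percentile 3.33. Col12a1, its relative, had 1 peak in EDL, Quad and Sol and none in Dia, and its promoter was listed in EDL only (percentile 27.1). Col16a1 had 2, 4, 2 and 2 peaks. Its promoter scored 6.25 in EDL (4.83 to 7.97), 9.22 in Quad (7.22 to 11.6), 9.37 in Sol (7.60 to 11.4) and 8.46 in Dia (6.75 to 10.5), the only shared collagen promoter with its lowest score in EDL. Col22a1, a collagen of the muscle-tendon junction, had 1 peak in EDL, 3 in Quad, 1 in Sol and none in Dia. The Quad peaks included a promoter at percentile 2.35, near the threshold. Col9a1, of cartilage, had 1 peak in EDL at percentile 1.54. That peak lay in an intron of Col19a1, 91.4 kb from the Col9a1 start site.

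The transmembrane class held 9 peaks in EDL, 11 in Quad and 7 in Sol, with 3 in Dia. Col13a1, which acts at the neuromuscular junction, had 5, 7, 2 and 1 peaks and no promoter peak. A region 59.8 kb upstream was listed in all muscles at percentiles of 72.9, 64.0, 63.9 and 26.5. The interval of its score in Dia (4.26 to 7.32) lay below that in EDL (8.18 to 12.1). The Col13a1 introns held peaks in EDL and Quad only. Col23a1 had a promoter peak in every muscle, at percentiles of 60.3, 62.1, 67.3 and 47.6, and an intron 2 peak that ranked at percentile 77.0 in Sol and 8.31 in EDL. Col25a1, required in muscle for motor innervation, had its most peaks in Sol, with no peak in EDL and 2 in Quad, 3 in Sol and 1 in Dia. Its promoter was listed in Quad, Sol and Dia at low percentiles of 18.0, 9.81 and 23.4. Col17a1, a skin collagen, had 2 peaks in EDL and 1 in Quad.

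The multiplexins Col15a1 and Col18a1 belong to the basement membrane zone of muscle and vessels. Col15a1 had 3, 6, 2 and 1 peaks, and Col18a1 3, 5, 5 and 3. The Col18a1 region 40.4 kb upstream had similar scores in the 4 lists, at 9.04 in EDL, 8.96 in Quad and 8.79 in Sol, with 9.87 in Dia, and was the highest-ranked collagen peak of Dia without the mitochondria-like region (percentile 68.1). A Col15a1 region 45.8 kb upstream was listed in all muscles but varied from percentile 1.54 in EDL and 2.92 in Dia to 21.9 in Sol and 54.5 in Quad. Col18a1 had a promoter peak in EDL only (percentile 10.1), at one of its internal start sites, and Col15a1 had none.

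The short-chain collagen Col8a1, found in vessel walls, had 2, 3, 2 and 2 peaks. Its region 173 kb upstream scored 7.89 in EDL (6.27 to 9.79), 11.0 in Quad (8.81 to 13.6), 7.36 in Sol (5.81 to 9.20) and 5.04 in Dia (3.74 to 6.64). The Quad interval was clear of Dia. Promoter peaks of Col8a1 were listed in Quad (percentile 40.0) and Dia (percentile 6.36), 294 bp apart and counted as separate regions. Col8a2 had 1, 1, 2 and 0 peaks. Among the remaining types, Col28a1 had 3, 2, 3 and 2 peaks, Col26a1 had 1, 2, 1 and 1, and the anchoring-fibril gene Col7a1 had 1 peak in Quad and Sol, which was annotated to the transcription end of its neighbour Uqcrc1. The genes with no peak in any list were Col4a3, Col4a5, Col4a6, Col6a4, Col9a2, Col9a3, Col10a1 and Col20a1.

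Across the family Quad had the most peaks, alone or tied, for 30 of the 36 genes. Quad had more peaks than Sol at 26 genes, fewer at 4 and the same number at 5. Among protein-coding genes with a peak in either of these lists, 46.2% had more peaks in Quad and 12.6% fewer. The shares of the 35 collagen genes were 74.3% (57.9% to 85.8%) and 11.4% (4.54% to 26.0%). Genes with equal numbers count in neither share, and collagen genes had more peaks per gene in Quad (3.02 against 1.57). Untied genes were not compared on their own. The 30 genes made 83.3% (68.1% to 92.1%), against 78.0% of protein-coding genes with a peak in any list, so this count was close to the background. Collagen peaks made up 0.275% of the EDL list (0.222% to 0.341%), 0.330% of Quad (0.278% to 0.391%), 0.236% of Sol (0.186% to 0.299%) and 0.171% of Dia (0.124% to 0.236%). Among peaks outside promoters the shares were 0.364%, 0.389%, 0.321% and 0.252%, with overlapping intervals of 0.325% to 0.466% in Quad and 0.179% to 0.356% in Dia. When only the 20000 top peaks per list were kept, collagen peaks numbered 46 in EDL and 58 in Quad, 43 in Sol and 31 in Dia, so the order of the muscles stayed and the distance between them shrank.

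Peaks of the 4 lists that shared at least 1 bp were joined into regions, 176 at collagen genes of 53883 in all. Regions listed in all muscles were 24 of 176 (13.6%, 9.34% to 19.5%), against 26.9% of all regions. Promoters, often shared between muscles, were few here. Among the 157 collagen regions without a promoter peak 20 were listed in all muscles (12.7%, 8.40% to 18.9%), and 16.0% of all such regions. Regions of Quad alone were 51 of the 157 (32.5%, 25.7% to 40.2%, against 26.9%), and those of EDL and Quad alone 21 (13.4%, 8.92% to 19.6%, against 9.57%). EDL alone had 7.64% (against 7.96%), Sol alone 10.2% (against 10.4%) and Dia alone 4.46% (against 5.27%). EDL, Quad and Sol without Dia shared 10.8% (against 9.15%), and Quad and Sol alone 4.46% (against 4.11%). For each of these patterns the share over all regions lay within the interval of the collagen regions. The exception was the remaining combinations of lists, which made up 6 of the 157 collagen regions (3.82%, 1.76% to 8.09%) and 10.7% of all such regions.

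**Figure D5:**
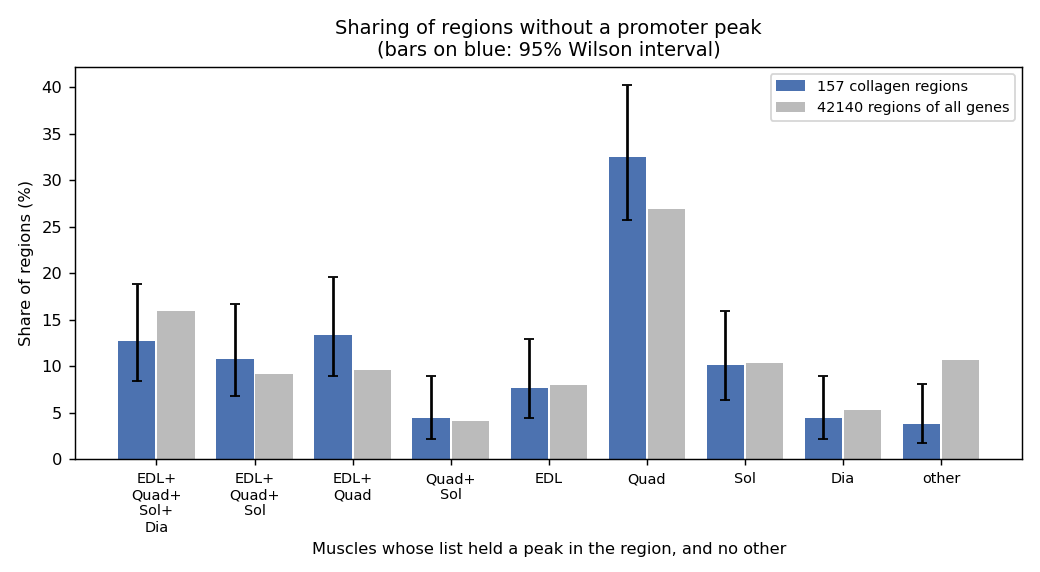
Share (percent) of regions without a promoter peak by the muscles whose lists held them, for 157 collagen regions (blue, with 95% Wilson intervals) and 42140 regions of all genes (grey). Quad alone was the most frequent pattern, 32.5% of collagen regions and 26.9% of all.

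Among the 24 shared regions the rank of the score among all regions shared by the 4 muscles was highest in EDL for 6, in Quad for 8, in Sol for 8 and in Dia for 2. Over all 14497 shared regions the highest rank fell in EDL for 23.5%, in Quad for 24.7%, in Sol for 23.5% and in Dia for 28.3%. The median rank of the collagen regions was 29.1, 33.2, 30.6 and 21.7 in the same order, on a scale where the median region is at about 50. Of the 24 collagen regions 20 had no promoter peak, against 6737 of the 14497 shared regions. Since promoters generally score higher, the scale is not a like comparison, and ranks without promoters were not computed.

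Peaks found in 1 list alone numbered 14 in EDL, 60 in Quad and 16 in Sol, with 8 in Dia. They made up 7.95%, 34.1% (27.5% to 41.4%), 9.09% and 4.55% of the 176 collagen regions, in that order. The shares over all regions were 6.71%, 22.7%, 8.62% and 4.61%. Only in Quad did the share over all regions fall outside the interval, and without promoter regions it fell within it there too. Of these single-list peaks, 3, 4, 4 and 2 lay within 500 bp of a peak of another list. Their median percentile was 10.1 in EDL and 28.0 in Quad, 33.7 in Sol and 19.2 in Dia, and 18.8, 23.4, 16.1 and 16.7 over all peaks found in 1 list. The strongest by class were the Col5a1 promoter (67.4), the Col4a2 promoter (74.0), Col6a3 intron 1 (82.5), a peak 2.06 kb upstream of Col16a1 (56.8), a Col13a1 intron (46.5), a Col15a1 intron (64.0) and the Col8a1 promoter (40.0), all in Quad, and a Col28a1 intron in Sol (38.2). The Col28a1 peak in Sol lay 29 bp from a region that EDL, Quad and Dia listed. The promoters of 7 of the 44 genes were listed in Quad alone (15.9%, 7.93% to 29.4%), against 3.02% of protein-coding genes.

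The letters of AP-1 and NFAT sites were more frequent in collagen regions than in open chromatin at large. In the central 200 bp, TGANTCA was found in 32 of 176 collagen regions (18.2%, 13.2% to 24.5%) and in 9.53% of all regions. TGGAAA was found in 28.4% (22.3% to 35.5%), against 18.1%. Without promoter regions the shares were 19.7% against 11.3% for AP-1 and 29.9% against 20.6% for NFAT, so both gaps remained. The AP-1 share outside promoters was 21.3% in EDL (13.6% to 31.9%, against 11.7%), 23.1% in Quad (16.4% to 31.5%, against 11.5%), 19.0% in Sol (11.2% to 30.4%, against 12.1%) and 19.4% in Dia (9.19% to 36.3%, against 11.5%). The intervals of EDL and Quad lay above the share of all regions and those of Sol and Dia included it. Many of these regions are shared between lists and are not independent.

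AP-1 letters lay in regions of 18 collagen genes. They were in 8 of 53 fibrillar regions, 6 of 24 basement membrane regions, 5 of 30 beaded-filament regions, 9 of 23 fibril-associated regions and 3 of 15 multiplexin regions. None of the 15 transmembrane and 7 short-chain regions held them, and 1 of the 9 regions of the other types did. Col14a1 had 5 such regions and Col5a1 4. The GC box was rarer, in 13.1% of collagen regions (8.87% to 18.8%) against 21.2%, but without promoter regions the shares were 7.64% and 10.1%, and 10.1% lay within the interval of 4.43% to 12.9%. The CCAAT box (23.3% against 24.8%), TEAD (15.3% against 12.1%), RUNX (TGTGGT, 10.8% against 12.3%), SOX (ACAATG, 10.8% against 7.78%) and MEF2 (7.39% against 4.56%) shares had intervals that included the value over all regions. The median GC content was 52.5% in collagen regions and 53.0% in all regions. A match of letters is no evidence of binding.

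Genes that act on collagen more often had a listed promoter than the collagen genes by these counts, a difference that was not tested. Of 59 such genes, 25 in EDL (42.4%), 32 in Quad (54.2%) and 25 in Sol (42.4%), with 20 in Dia (33.9%), had a promoter peak. Among protein-coding genes the shares were 38.5%, 42.2%, 38.4% and 37.8%. Any peak was listed for 47, 50, 47 and 42 of the 59, and for 55.9%, 61.5%, 55.6% and 52.3% of protein-coding genes. The smaller groups below are parts of these 59, and their counts were not compared with a background. Among the 18 genes for modification and folding, promoters were listed for 8, 12, 9 and 8. P4ha2, a prolyl hydroxylase subunit that stabilises the triple helix, had 6, 10, 5 and 4 peaks, and Colgalt1, which adds galactose to hydroxylysine, had a promoter at percentile 97.6 in EDL and 99.0 in Quad, 97.6 in Sol and 97.7 in Dia. Promoters were listed for 5, 5, 4 and 4 of the 12 genes for processing and cross-linking. There Adamts2, the procollagen N-proteinase, had 7, 12, 6 and 2 peaks. Lox, the main cross-linking oxidase, had a single peak, in EDL.

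Among the 9 receptors, 4 genes in EDL, 5 in Quad and 5 in Sol, with 3 in Dia had a promoter peak. Ddr2, a receptor kinase for fibrillar collagen, differed most, with 1 peak in EDL and 7 in Quad, 2 in Sol and 1 in Dia, and Itgb1, the common integrin subunit, had 6, 6, 7 and 4. Among the 10 genes of collagen breakdown, Timp3, an inhibitor of matrix proteases, had 9, 13, 7 and 4 peaks, and Mmp8, Mmp13 and Timp1 had none. Among the 10 basement membrane partners of type IV collagen, Lamc1 (a laminin chain) had 8, 10, 3 and 3 peaks and Nid2 (nidogen) had 3, 7, 2 and 1. Lama2, the laminin chain of the muscle fibre membrane, had 2 peaks in EDL, 3 in Quad and none in Sol or Dia.

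Summed over each set, markers of fibroblasts, tendon and smooth muscle had their most peaks in Quad, whose list was the longest (40337 peaks). Their fewest peaks were in Dia, whose list was the shortest (21582). Endothelial, satellite cell and mesothelial markers also had their most peaks in Quad. The EDL and Sol lists held 30136 and 28784 peaks, and marker counts were not scaled to list length. The 8 fibroblast and fibro-adipogenic markers had 13 peaks in EDL, 22 in Quad and 13 in Sol, with 6 in Dia. They came from 5, 6, 4 and 4 of the genes, and Lum had none. Of the Quad peaks Cd34 held 8 and Thy1 7. Dcn and Pdgfra had as many peaks in EDL as in Quad, and Pi16 had peaks in EDL alone. The 6 tendon markers had 6, 14, 5 and 1 peaks, from 3, 4, 2 and 1 genes, with Tnmd and Kera at 0 in all lists. Of the Quad peaks Tnc held 6, and Thbs4 had 3 each in EDL and Quad. Smooth muscle and pericyte markers had 11, 18, 7 and 6 peaks, and endothelial markers 44, 50, 47 and 25. Among the former, Mcam had 3 peaks in EDL and 2 in Quad, and Pdgfrb had 1 in each. The myofibre markers had 18, 16, 18 and 11 peaks, with Acta1, Ckm and Ttn listed in every muscle, Myh4 in EDL, Quad and Sol, and Myh7 in Sol alone. Leukocyte markers had 4, 4, 1 and 0 peaks, Schwann cell markers 1, 2, 3 and 1, and adipocyte markers 1, 0, 0 and 3. Satellite cell markers had 2, 6, 3 and 1 peaks, chondrocyte markers 3, 3, 3 and 2, and mesothelial markers 1, 3, 2 and 1. The part of cell composition in the collagen counts was not tested.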

How the data were processed

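ATAC-seq was performed by the authors on about 30 mg of frozen muscle powder, with 1 pooled library for each of the 4 muscles analysed here. Reads of 42 bp were aligned by the authors with Bowtie2 to mm10, and HOMER kept 1 tag per position, called fixed-width peaks in each library and annotated them to the nearest start site. Whether reads from the mitochondrial genome or repeats were removed, or the transposase offset applied, was not given in the sources used here. The deposited lists give a score for each peak, that is, tags scaled by library size, and a distance to the start site. They also hold a deposited fraction, the focus ratio, whose median at collagen genes was 0.630 (Dia) to 0.654 (Quad).

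Tags were inferred from scores below 10 on HOMER's scale of 10 M tags (M, mega). Between 95.6% and 100% of these scores were whole tags, within the rounding of the score to 0.01. Collagen symbols were matched to RefSeq of GRCm38.p6, the assembly behind mm10, and gene bodies to GENCODE vM21. Regions were merged at 1 bp overlap. Shares have 95% Wilson intervals, and differences Newcombe intervals. Motif shares over all regions leave out unplaced sequences. Steps were tested on simulated lists (Python 3.11.15, pandas 2.3.3, numpy 2.4.6, pysam 0.24.0). Members, classes, gene lists, motifs and the rule for named genes were chosen with earlier results of these data known. The rule names genes with a promoter peak, the 5 genes with most peaks, the strongest shared and single-list regions of each class, pathway genes that differ most, and genes without a peak. Genes described beyond it, and the 6 plotted by distance, were chosen after their values were seen. The alternatives are given in the closing section, and 1 of them, which leaves out the region matching the mitochondrial genome, was chosen after seeing the data.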

Additional observations from a re-analysis of the deposited data

How the results depend on the processing

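Keeping the 20000 highest-scored peaks of each list lowered the collagen peaks to 46 in EDL, 58 in Quad and 43 in Sol, since fewer peaks were counted. Keeping peaks within 50 kb of the start site gave 50, 87, 41 and 24 in EDL, Quad, Sol and Dia, for the same reason. In both cases Quad had the most. Median percentiles within the 20000 highest-scored peaks moved to 25.0 in EDL and 27.3 in Quad. Taking the gene from its annotated body with 10 kb upstream, or using autosomes and X only, kept the number of peaks within 1.5 times. The promoter shares stayed within their intervals under every alternative run for them, from 6.98% (Sol) to 20.8% (Dia). The number of genes with a peak stayed within 1.5 times, from 19 to 36. Regions listed in all muscles ranged from 10.2% with a reciprocal overlap of 50% to 17.2% among the 20000 highest-scored peaks. In wider windows of 400 bp AP-1 letters were found in 25.6% of collagen regions and 14.9% of all regions, and NFAT letters in 41.5% and 32.6%. Of 222 values recomputed, 57 moved beyond these limits, most of them small counts per class. With fewer than 40 tags at the weakest peaks, an unlisted peak in Dia or Sol may be weak rather than absent. No paired analysis was possible because each muscle had 1 pooled library and the labels carry no replicate numbers.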

Other observations

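Several genes whose names begin with Col but which are not collagen chains were left out of the counts. Colq encodes the collagen-like tail that anchors acetylcholinesterase at the neuromuscular junction, and it had 3 peaks each in EDL, Quad and Sol and 2 in Dia, none at a promoter. Its strongest peak ranked at percentile 78.8 in EDL, 73.3 in Quad and 79.9 in Sol, with 29.6 in Dia. Colec12, a scavenger receptor with a collagen-like stretch, had 2, 3, 2 and 2 peaks, with a promoter in EDL, Quad and Dia. Col4a3bp, a ceramide transporter named for its interaction with a type IV chain, had 2 promoter peaks in Quad with a top percentile of 96.2, 1 weak peak in Dia (percentile 4.66) and none in EDL or Sol. Colgalt2, the relative of Colgalt1, had 6, 8, 7 and 2 peaks, with a promoter in Quad and Dia.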
